A study of Mus musculus with 42 samples.

Results

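Clonotypes without inserted bases are T-cell receptor beta (TCRβ) rearrangements in which the V, D and J segments meet with no unassigned base between them. A clonotype here is 1 nucleotide form of the CDR3, the loop that spans the joins and touches the peptide, together with the V and J it joins. Members had a CDR3 of letters only, from the conserved Cys to Phe, of 8 to 20 residues, a D segment listed, and 0 bases between the listed V end and D start and between D end and J start. They numbered 9272 of the 31576 clonotype rows in 5 libraries, and of the 18459 rows that met the same CDR3 limits and had a D segment listed they were 50.2%. The other 9187 such rows had at least 1 inserted base and serve for comparison. The members held 8727 distinct nucleotide clonotypes and 7913 distinct amino acid clonotypes.

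The libraries came from T cells of mice carrying Foxn1Cre, a Cre recombinase expressed in thymic epithelial cells, together with floxed NIK (NF-κB-inducing kinase, a kinase of the non-canonical NF-κB pathway). KO mice were Foxn1Cre x NIKfl/fl and WT mice Foxn1Cre x NIKfl/wt, so the WT mice carried the Cre and a floxed allele too; NIK in the T cells themselves was not targeted. The 5 libraries were KO lung CD4 (mouse 617, CD4+CD25-CD62L+), KO thymus Treg (mouse 618, CD4+CD25hi), KO spleen CD8 (mouse 617, CD8+CD25-CD62L+), KO spleen CD4 (mouse 597, CD4+CD25-CD62L+) and WT spleen CD8 (mouse 614, CD8+CD25-CD62L+). They held between 98655 and 205882 reads, and 1 library was analysed per group, so a difference between libraries compares those libraries and has no replicate. The KO lung CD4 and KO spleen CD8 libraries came from the same mouse, and were never counted as different mice.

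TCRβ genes are assembled in the thymus by the RAG recombinase, which joins a D to a J segment and then a V to the DJ. Exonucleases trim the ends, the opened hairpins can leave short palindromic (P) bases, and terminal deoxynucleotidyl transferase (TdT, encoded by Dntt) adds non-templated (N) bases. In mice TdT is absent from the fetal thymus and comes on around birth, so receptors of early life carry few N bases, and rearrangements close to the germline are known to recur between individuals.

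The sequences of the members found in most mice, and of the leading member of each library, show what such a join looks like. The bases assigned to the D segment are in capitals, in members with V bases before and J bases after them, 5′ to 3′. The segments lie on chromosome 6: TRBD1 at chr6:41533201-41533212 and TRBD2 at chr6:41542163-41542176 (RefSeq, GRCm38.p6). The D sequence best supported by all listed D ranges was GGGACAGGGGGC for TRBD1 and GGGACTGGGGGGGC for TRBD2. Each sequence is named by its V, D and J. These 3 members were found in all 4 mice:
TRBV20/TRBD2/TRBJ2-3: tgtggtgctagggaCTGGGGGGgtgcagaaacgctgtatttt
TRBV19/TRBD2/TRBJ2-7: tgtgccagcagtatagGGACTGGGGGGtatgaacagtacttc
TRBV19/TRBD1/TRBJ1-3: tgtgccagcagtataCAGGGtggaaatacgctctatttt

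These 3 were found in 3 of the 4 mice and are among those with the most reads. They show D cores meeting other V and J segments:
TRBV17/TRBD2/TRBJ2-1: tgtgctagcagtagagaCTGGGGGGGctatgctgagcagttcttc
TRBV13-2/TRBD2/TRBJ2-7: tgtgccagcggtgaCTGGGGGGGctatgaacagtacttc
TRBV3/TRBD1/TRBJ2-7: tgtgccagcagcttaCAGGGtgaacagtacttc

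For contrast, the sole clonotype with inserted bases in 3 mice was chosen after its values were seen. It had 1 inserted base between D and J, the first small letter after the capitals:
TRBV16/TRBD2/TRBJ2-7: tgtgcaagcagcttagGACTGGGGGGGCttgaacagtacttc

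The leading members by reads, each within its own library, are shown for KO lung CD4, KO thymus Treg, KO spleen CD8, KO spleen CD4 and WT spleen CD8 in that order:
TRBV20/TRBD1/TRBJ1-6: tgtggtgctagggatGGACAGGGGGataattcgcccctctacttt
TRBV13-2/TRBD2/TRBJ2-5: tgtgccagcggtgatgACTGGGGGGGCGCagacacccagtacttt
TRBV16/TRBD2/TRBJ2-4: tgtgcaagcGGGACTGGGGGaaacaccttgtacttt
TRBV1/TRBD1/TRBJ1-6: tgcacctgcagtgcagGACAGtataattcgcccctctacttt
TRBV5/TRBD1/TRBJ1-1: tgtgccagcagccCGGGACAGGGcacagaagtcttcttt

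The letters of each member were compared with sequences derived from the same files, so a high match is partly built in. It does not test the label. In 97.1% of the members the D range lay within the D sequence above or its palindromic extension, and in 75.1% within the D sequence alone. Among clonotypes with inserted bases these shares were 95.9% and 71.2%. The caller thus listed some bases beyond the derived D sequence as D, and P bases may be among them. The V part equalled the commonest sequence of its segment in the files in 90.9% of members and the J part in 95.03%. For clonotypes with inserted bases the figures were 93.7% and 95.9%. All parts matched in 7774 members, or 83.8%, against 86.1% with inserted bases, so members did not match more often. A base added by TdT that happened to equal the germline base would also count as germline, so 0 inserted bases is the caller's reading and sets no exact number of N bases.

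The KO thymus Treg library had the fewest clonotypes without inserted bases, and the other 4 libraries had from 51.0% to 61.5%. The share was 60.2% (95% Clopper-Pearson interval 58.0 to 62.4; 1212 of 2013 clonotypes) in KO lung CD4. In KO thymus Treg it was 26.5% (24.8 to 28.3; 648 of 2441). In KO spleen CD8 it was 61.5% (59.2 to 63.9; 1045 of 1698). KO spleen CD4 had 59.6% (56.5 to 62.6; 602 of 1010), and WT spleen CD8 had 51.0% (50.1 to 52.0; 5765 of 11297). The 3 KO conventional libraries had overlapping intervals, all above that of WT spleen CD8 and far above that of KO thymus Treg. Of these KO libraries only KO spleen CD8 matched WT spleen CD8 in lineage and organ. These and all further intervals cover counting error only, since reads are PCR copies and no molecular identifiers are given in the labels.

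As ratios, KO thymus Treg had 0.445 times the share of KO spleen CD4 (interval 0.410 to 0.484). KO spleen CD8 had 1.21 times the share of WT spleen CD8 (1.16 to 1.26), the sole pair here that differed in genotype label. KO spleen CD8 over KO spleen CD4 gave 1.03 (0.969 to 1.10), and KO lung CD4 over KO spleen CD4 gave 1.01 (0.949 to 1.07). Within mouse 617, KO lung CD4 over KO spleen CD8 gave 0.978 (0.929 to 1.03). The last 3 intervals include 1. Those against KO spleen CD4 also compare different mice, and the pair within mouse 617 differs in lineage and organ together. With 1 library per group, a difference between CD4 and CD8 or between lung and spleen cannot be judged. Mouse, lineage and organ differ together in the Treg pair and cannot be told apart. Genotype label and mouse likewise differ together between KO and WT spleen CD8 and cannot be told apart.

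The distribution of inserted bases fell off steeply past 0 in the 4 conventional libraries and slowly in KO thymus Treg. Just past the limit of the definition, clonotypes with 1 inserted base made up 14.1% of KO lung CD4, 20.8% of KO thymus Treg, 16.5% of KO spleen CD8, 14.0% of KO spleen CD4 and 18.5% of WT spleen CD8. The mean number of inserted bases was 1.03 in KO lung CD4, 2.13 in KO thymus Treg, 0.858 in KO spleen CD8, 1.02 in KO spleen CD4 and 1.15 in WT spleen CD8.

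**Figure D1:**
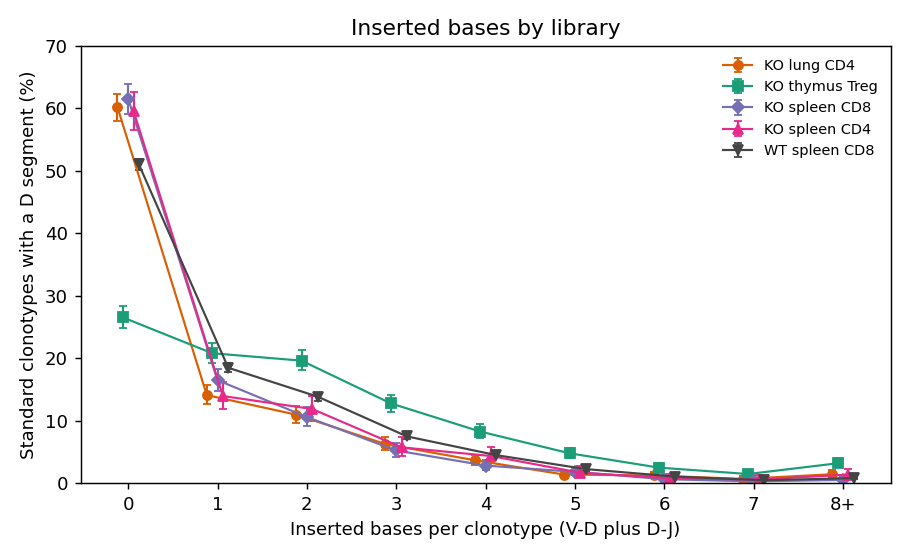
Share of clonotypes (vertical axis, percent) with each number of inserted bases (horizontal axis, V-D plus D-J) in the 5 libraries; points are shares and bars 95% Clopper-Pearson intervals. At 0 inserted bases KO thymus Treg sits at 26.5%, below the other 4 libraries at 51.0% to 61.5%, and from 1 base onward it lies above them.

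Both joins contributed. The V-D join had no inserted base in 71.2% of clonotypes in KO lung CD4, 47.4% in KO thymus Treg, 73.6% in KO spleen CD8, 68.6% in KO spleen CD4 and 65.7% in WT spleen CD8. The D-J join had none in 80.3%, 54.5%, 80.4%, 81.6% and 73.0% of clonotypes in the same order of libraries. In every library the D-J join was the more often free of inserted bases.

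Out-of-frame rearrangements, which cannot make a receptor chain, had KO thymus Treg lowest too. Among out-of-frame rows with a D segment, 62.1% (interval 55.2 to 68.7; 131 of 211) had no inserted base in KO lung CD4 and 20.3% (16.1 to 25.0; 68 of 335) in KO thymus Treg. The share was 55.9% (48.5 to 63.2; 104 of 186) in KO spleen CD8, 55.1% (45.7 to 64.3; 65 of 118) in KO spleen CD4 and 42.2% (38.7 to 45.7; 330 of 782) in WT spleen CD8. KO thymus Treg was again lowest, and KO spleen CD8 again lay above WT spleen CD8. Out-of-frame rows had few reads, with medians between 1 and 8 per library. In-frame rows with a stop codon make no chain either and were too few for an order: 9 of 16 had no inserted base in KO lung CD4, 6 of 15 in KO thymus Treg, 2 of 8 in KO spleen CD8, 0 of 4 in KO spleen CD4 and 38 of 68 in WT spleen CD8.

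Short D ranges went with a higher share without inserted bases than long ones in all 5 libraries. The listed D ends give both the D length and the class, so they are not independent. For D ranges of 5 to 6 bases and of 11 or more bases, the share without inserted bases was 65.0% and 51.1% in KO lung CD4, 29.7% and 23.5% in KO thymus Treg, 66.3% and 58.8% in KO spleen CD8, and 54.4% and 46.2% in WT spleen CD8. In KO spleen CD4 the shares at these lengths were 60.1% and 49.3%, but the highest share, 64.4%, was at 9 to 10 bases. The intervals of the shortest and longest D ranges were apart in KO lung CD4 and WT spleen CD8, and overlapped in the other 3 libraries.

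Members took larger read counts than clonotypes with inserted bases in all 5 libraries. The median was 14 reads without and 7 with inserted bases in KO lung CD4, 39 and 31 in KO thymus Treg, 10 and 6 in KO spleen CD8, 38 and 19 in KO spleen CD4, and 7 and 6 in WT spleen CD8. Mean log2 reads differed by 0.77 ± 0.46 (SD, n = 5 libraries), higher without inserted bases in 5 of 5 libraries (two-sided exact sign-flip permutation test over libraries, p = 0.0625, the smallest that 5 libraries can give). The differences were 1.10 in KO lung CD4, 1.04 in KO spleen CD8 and 1.17 in KO spleen CD4, against 0.23 in KO thymus Treg and 0.30 in WT spleen CD8. KO lung CD4 and KO spleen CD8 came from the same mouse. With these averaged the mean difference was 0.69 (exact sign-flip test over 4 mice, p = 0.125, the smallest possible).

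The share without inserted bases also varied with the reads of the clonotype. In KO lung CD4 it was 51.4% among clonotypes of 1 read, 50.1% at 2 to 9 reads, 65.6% at 10 to 99 and 93.7% (133 of 142) at 100 or more. KO spleen CD8 had 51.2%, 55.0%, 67.8% and 92.1% over the same read classes, and KO spleen CD4 had 37.8%, 55.0%, 60.1% and 83.9%. WT spleen CD8 had 45.8%, 48.7% and 56.6%, and all 9 of its clonotypes with 100 or more reads were without inserted bases. In KO thymus Treg the share lay between 23.3% and 31.1% in every read class, and at 100 or more reads its interval (26.5 to 36.1) did not meet those of the other libraries.

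**Figure D2:**
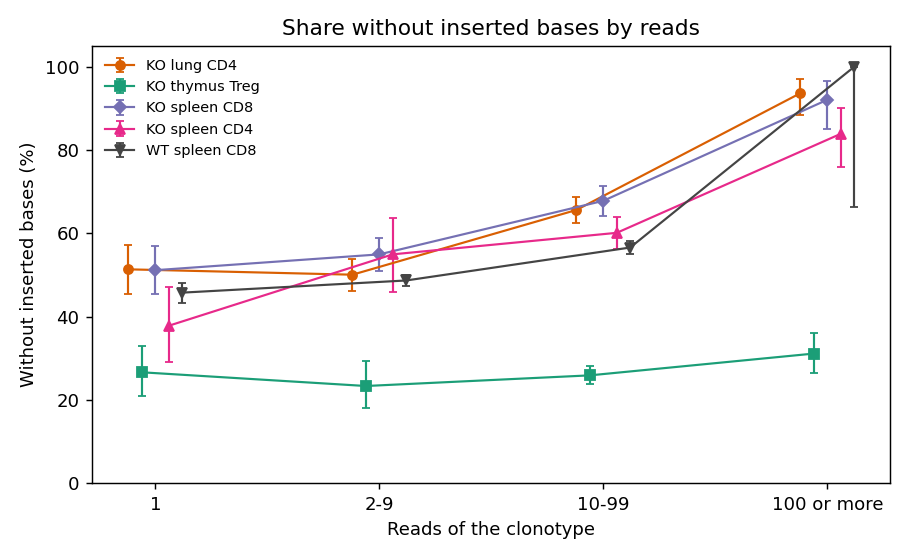
Share of clonotypes without inserted bases (vertical axis, percent) by the reads of the clonotype (horizontal axis, 4 classes) in the 5 libraries; bars are 95% Clopper-Pearson intervals. The 3 KO conventional libraries reach 83.9% to 93.7% at 100 or more reads, KO thymus Treg stays between 23.3% and 31.1%, and the last WT point rests on 9 clonotypes.

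Counted by reads, and over the reads of standard clonotypes with a D segment listed rather than of the whole library, members held 84.3% in KO lung CD4, 32.7% in KO thymus Treg, 86.4% in KO spleen CD8, 78.9% in KO spleen CD4 and 57.6% in WT spleen CD8. The leading member of KO spleen CD8, TRBV16/TRBD2/TRBJ2-4, had 14668 reads, or 11.8% of the reads of clonotypes with a D segment in that library. The other leading members held 2.92% of these reads in KO lung CD4 (TRBV20/TRBD1/TRBJ1-6, 2375 reads), 0.711% in KO thymus Treg (TRBV13-2/TRBD2/TRBJ2-5, 949 reads), 4.67% in KO spleen CD4 (TRBV1/TRBD1/TRBJ1-6, 2843 reads) and 0.992% in WT spleen CD8 (TRBV5/TRBD1/TRBJ1-1, 1028 reads). Each of these 5 leading clonotypes was found in 1 mouse.

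Members recurred in other mice far more often than clonotypes with inserted bases. The same CDR3 nucleotide sequence with the same V and J was found in another mouse for 13.4% of members (163 of 1212), against 0.999% of clonotypes with inserted bases, in KO lung CD4, where the figure over both classes was 8.49%. In KO thymus Treg the shares were 10.96% (71 of 648) and 0.725%, with 3.44% over both. In KO spleen CD8 they were 17.3% (181 of 1045) and 1.23%, with 11.1% over both. KO spleen CD4 had 19.8% (119 of 602) and 2.94%, with 13% over both, and WT spleen CD8 had 6.24% (360 of 5765) and 0.380%, with 3.37% over both. The difference was 12.3 ± 4.49 percentage points (SD, n = 5 libraries), positive in 5 of 5 libraries (two-sided exact sign-flip permutation test, p = 0.0625, the smallest possible). A match counts in both libraries that hold it, and KO lung CD4 and KO spleen CD8 are of the same mouse. The 5 differences are therefore not independent, which the test takes them to be. Levels are not compared between libraries, because the number of clonotypes in the other mice differs for each.

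The drop came at the first inserted base. Clonotypes with 1 inserted base were found in another mouse in 1.06% of cases in KO lung CD4, 2.17% in KO thymus Treg, 2.14% in KO spleen CD8, 5.67% in KO spleen CD4 and 0.527% in WT spleen CD8. Within read classes the order was the same wherever both classes had clonotypes. Among clonotypes of 10 to 99 reads, 15.6% without and 1.63% with inserted bases recurred in KO lung CD4, 9.86% and 0.756% in KO thymus Treg, 20.1% and 1.86% in KO spleen CD8, 17.6% and 1.95% in KO spleen CD4, and 7.17% and 0.294% in WT spleen CD8.

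**Figure D3:**
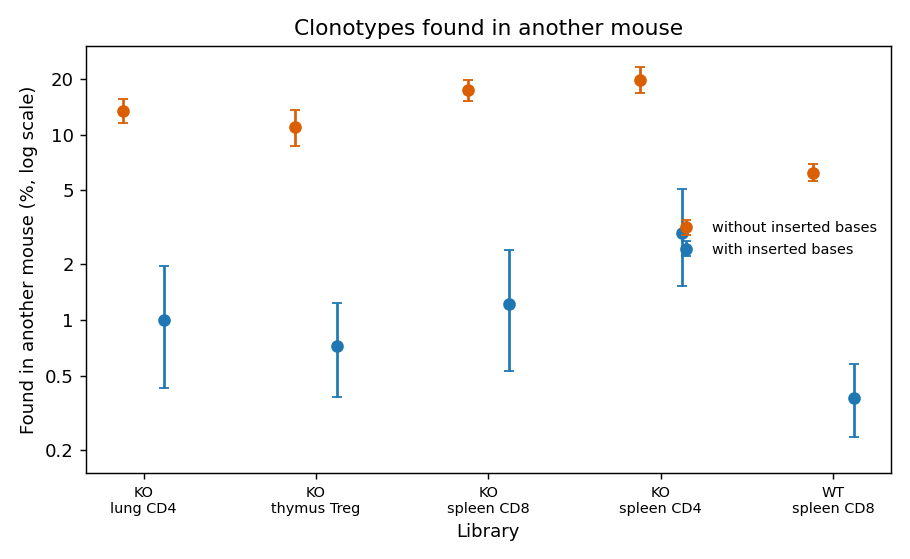
Share of clonotypes found in at least 1 other mouse (vertical axis, percent on a log scale) without and with inserted bases in each library (horizontal axis); bars are 95% Clopper-Pearson intervals. In every library the share without inserted bases, from 6.24% to 19.8%, lies above the interval of the share with inserted bases, from 0.380% to 2.94%.

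As amino acid sequences with the same V and J, 22.9% of members and 3.995% of clonotypes with inserted bases recurred in KO lung CD4, 20.8% and 3.57% in KO thymus Treg, 29.3% and 5.82% in KO spleen CD8, 29.2% and 5.64% in KO spleen CD4, and 12.2% and 2.58% in WT spleen CD8. The same protein was also reached more than once within a library. Of amino acid clonotypes with at least 1 form without inserted bases, 3.93% had several nucleotide forms in KO lung CD4, 4.13% in KO thymus Treg, 4.59% in KO spleen CD8, 2.71% in KO spleen CD4 and 10.6% in WT spleen CD8. Where all forms had inserted bases, the shares were 2.72%, 1.83%, 3.54%, 2.03% and 2.98% in the same order of libraries. A protein with several forms enters the first class as soon as 1 form has no inserted base, so the classes partly fix this difference and it was not tested.

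Over all libraries, 372 distinct members were found in 2 mice, 37 in 3 and 3 in 4, which is 4.72% of 8727. Among 9130 distinct clonotypes with inserted bases, 29 were found in 2 mice, 1 in 3 and 0 in 4, which is 0.329%. KO spleen CD8 and WT spleen CD8 had 165 members in common, 15.8% of the KO members and 2.86% of the WT members, against 5 clonotypes with inserted bases, 0.766% of those in KO and 0.0904% of those in WT. The KO lung CD4 and KO spleen CD8 libraries of mouse 617 shared 90 members, 7.43% of those in KO lung CD4 and 8.61% of those in KO spleen CD8. They also shared 26 clonotypes with inserted bases, or 49.7 per 1000000 pairs of clonotypes, against 0 to 6.83 between libraries of different mice. Why CD4 and CD8 libraries of a mouse share such clonotypes was not tested, and none of them counted as recurrence between mice.

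The 3 members found in all 4 mice had modest read counts in each. TRBV20/TRBD2/TRBJ2-3 had 171 reads in KO lung CD4, 36 in KO thymus Treg, 0 in KO spleen CD8, 96 in KO spleen CD4 and 10 in WT spleen CD8. TRBV19/TRBD2/TRBJ2-7 had 14 reads in KO lung CD4, 70 in KO thymus Treg, 0 in KO spleen CD8, 2 in KO spleen CD4 and 14 in WT spleen CD8. TRBV19/TRBD1/TRBJ1-3 had 10, 4, 0, 67 and 11 reads in the same order of libraries. All 3 were thus present in 4 libraries and had no read in KO spleen CD8, although mouse 617 was represented by its lung CD4 cells.

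Members found in 3 mice could be large in a single library and small elsewhere. TRBV17/TRBD2/TRBJ2-1 had 1 read in KO lung CD4, 2 in KO thymus Treg, 1734 in KO spleen CD8, 0 in KO spleen CD4 and 130 in WT spleen CD8. TRBV13-2/TRBD2/TRBJ2-7 had 48 reads in KO lung CD4, 1446 in KO spleen CD4 and 16 in WT spleen CD8, and 0 in the others. TRBV3/TRBD1/TRBJ2-7 had 830 reads in KO spleen CD8, 27 in KO spleen CD4 and 7 in WT spleen CD8, and 0 in the others. TRBV19/TRBD2/TRBJ2-1 had 62 reads in KO thymus Treg, 249 in KO spleen CD8 and 6 in WT spleen CD8. TRBV20/TRBD2/TRBJ2-1 had 11 reads in KO lung CD4, 299 in KO thymus Treg and 3 in WT spleen CD8. TRBV20/TRBD1/TRBJ2-4 had 50 reads in KO lung CD4, 127 in KO spleen CD4 and 15 in WT spleen CD8. The 2 members with TRBV5 and TRBD2 were both in KO spleen CD8, KO spleen CD4 and WT spleen CD8, with 208, 9 and 24 reads for the TRBJ2-1 join and 148, 22 and 21 reads for the TRBJ2-5 join. These last 5 members had 0 reads in the libraries not listed. In each of these members found in 3 mice 1 library held most of the reads, and whether a few reads elsewhere came from carry-over between libraries was not tested; among clonotypes with at least 10 reads the difference in recurrence was 8.69 percentage points.

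In all, 40 members were found in at least 3 mice. All parts matched the derived D and the commonest V and J sequences of the files in 38 of them. These members also enter those sequences, so the match is partly built in. TRBD1 and TRBD2 were listed in 20 each. Over all members of WT spleen CD8, TRBD1 was listed in 3257 and TRBD2 in 2508. Of the 40, 12 held the motif Asp-Trp-Gly that 1 reading frame of TRBD2 encodes, a frame whose shares among members follow below. TRBV20/TRBD2/TRBJ2-3 and TRBV17/TRBD2/TRBJ2-1 above are examples. A CTGGGG run alone does not show the motif, since TRBD2 joins read in other frames hold it too, such as TRBV19/TRBD2/TRBJ2-7. By V segment, TRBV20 (chr6:41188273-41188977) gave 7, TRBV13-2 (chr6:41121396-41121832) 6 and TRBV19 (chr6:41178589-41179048) 5. By J segment, TRBJ2-1 gave 9, TRBJ2-7 gave 7 and TRBJ2-5 gave 6. Their median length was 13.5 residues.

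Members were shorter than clonotypes with inserted bases, which the definition partly fixes, since inserted bases add to the length. The mean CDR3 was 13.3 residues without and 13.8 with inserted bases in KO lung CD4, 13.5 and 14.0 in KO thymus Treg, 13.4 and 14.0 in KO spleen CD8, 13.3 and 13.8 in KO spleen CD4, and 13.4 and 14.0 in WT spleen CD8. The difference was -0.546 ± 0.0474 residues (SD, n = 5 libraries). The listed V, D and J ends also set the class, so the base counts of each part are partly fixed as well. Members had more V bases listed, by 1.03 ± 0.361 in the mean, and more J bases, by 0.229 ± 0.211 (SD, n = 5 libraries each). Their D range was shorter, at 7.86 bases without and 8.34 with inserted bases in KO lung CD4, 7.89 and 8.26 in KO thymus Treg, 8.10 and 8.44 in KO spleen CD8, 7.83 and 8.16 in KO spleen CD4, and 8.23 and 8.59 in WT spleen CD8.

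**Figure D4:**
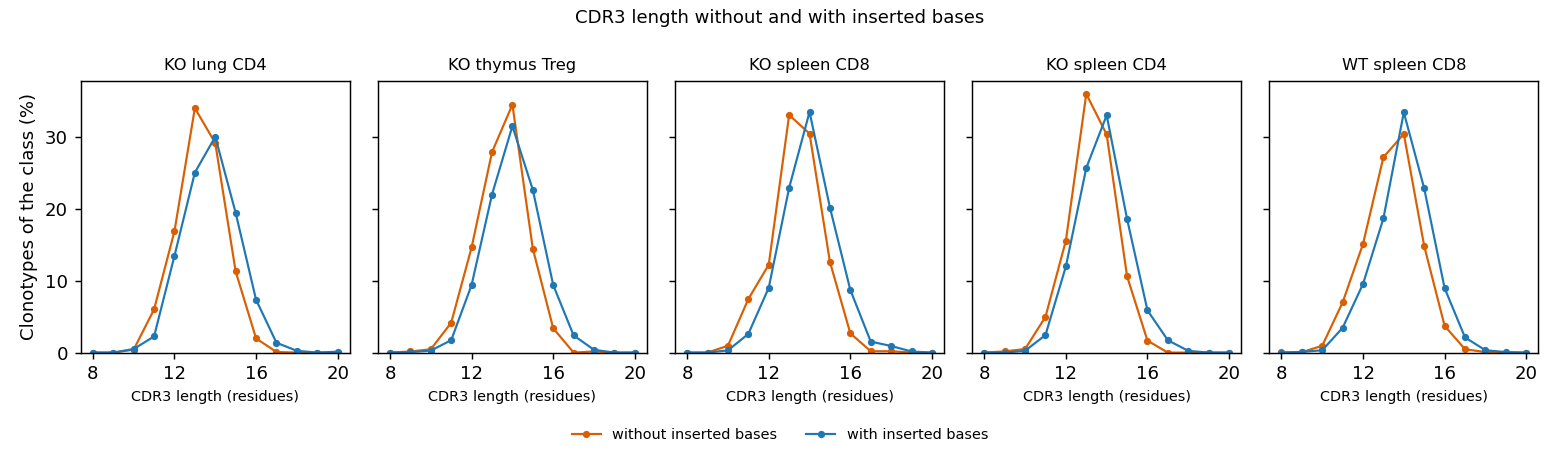
CDR3 length in residues (horizontal axis) against the share of clonotypes of the class (vertical axis, percent) without and with inserted bases, 1 panel per library. The mean lies between 13.3 and 13.5 residues without and between 13.8 and 14.0 with inserted bases; the offset is partly fixed by how the classes are defined.

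The D segments were read in every frame. Where the D range fell in the D sequence at 1 place, the Asp-Trp-Gly-Gly frame of TRBD2 was used by 47.8% of members in KO lung CD4, 45.2% in KO thymus Treg, 49.9% in KO spleen CD8, 45.8% in KO spleen CD4 and 44.2% in WT spleen CD8. With inserted bases its share was 33.3%, 41.6%, 42.3%, 49.6% and 42.9% in the same order, and the intervals were apart in KO lung CD4 alone (42.5 to 53.1 against 27.2 to 40.0). The Gly-Gln-Gly frame of TRBD1 was used by 45.5% of members in KO lung CD4, 42.9% in KO thymus Treg, 32.6% in KO spleen CD8, 43.0% in KO spleen CD4 and 33.6% in WT spleen CD8. With inserted bases its share was 31.3%, 35.4%, 29.3%, 39.9% and 28.8% in the same order, and the intervals of the classes were apart in KO lung CD4 (41.4 to 49.6 against 26.5 to 36.5) and WT spleen CD8 (31.7 to 35.5 against 26.8 to 30.9). In both classes the frame stood higher in the 3 KO CD4-lineage libraries than in both CD8 libraries. Among members the intervals of KO lung CD4 (41.4 to 49.6) and KO spleen CD8 (28.1 to 37.2), from the same mouse, were apart.

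V segments were compared by the ratio of their share without to their share with inserted bases, and called if at least 25% higher or at least 20% lower with a 95% interval of the ratio that left out 1, among segments at 1% or more in either class. Calls were made for 7 of 20 V segments (35%) in KO lung CD4, 2 of 19 (10.5%) in KO thymus Treg, 4 of 18 (22.2%) in KO spleen CD8, 5 of 20 (25%) in KO spleen CD4 and 6 of 18 (33.3%) in WT spleen CD8. TRBV22 was the sole segment called the same way in at least 4 libraries. It was lower among members in all 5, at 2.06% without and 9.86% with inserted bases in KO lung CD4, 2.31% and 6.13% in KO thymus Treg, 0.478% and 2.76% in KO spleen CD8, 2.16% and 12.01% in KO spleen CD4, and 0.416% and 1.81% in WT spleen CD8. Weighted by reads, 0 segments were called the same way in 4 libraries.

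TRBV22 (chr6:41212075-41212534) is listed as a pseudogene by RefSeq, and 409 of its 438 clonotypes here began with Cys-Ala-Trp. They had 10.2 V bases listed in the mean, against 13.9 in the other clonotypes, and 2.46 inserted bases at the V-D join, against 0.687. At the D-J join they had 0.550, against 0.504. The excess of inserted bases was thus on the V side, and whether the files' V name and end position are right for these clonotypes was not tested.

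TRBV20 was called higher among members in 3 libraries, at 7.72% without and 4.63% with inserted bases in KO thymus Treg, 6.48% and 3.43% in KO spleen CD4, and 4.98% and 3.20% in WT spleen CD8. TRBV19 was called lower in 3, at 7.46% and 10.3% in KO spleen CD8, 8.14% and 12.01% in KO spleen CD4, and 6.04% and 7.68% in WT spleen CD8. In KO lung CD4 and KO thymus Treg TRBV19 stood at 12.6% and 13.3% of members, against 11.2% and 11.5% with inserted bases, and was not called. TRBV29 went opposite ways, lower among members in KO lung CD4 (0.990% and 2.75%) and higher in WT spleen CD8 (5.65% and 4.501%). V segments that natural killer T cells favour (TRBV13-2, TRBV29, TRBV1) took 16.5% to 20.8% of members and 14.7% to 19.0% of clonotypes with inserted bases. Those that mucosal-associated invariant T cells favour (TRBV19, TRBV13-2, TRBV13-3) took 20.6% to 28.9% and 22.8% to 28.0%. Neither list passed the fold and interval in any library.

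Among J segments, calls were made for 2 of 12 (16.7%) in KO lung CD4, 3 of 12 (25%) in KO thymus Treg, 4 of 12 (33.3%) in KO spleen CD8, 1 of 12 (8.33%) in KO spleen CD4 and 3 of 12 (25%) in WT spleen CD8. TRBJ2-7, the most used J segment, had ratios below 1 in all 5 libraries. It made up 17.3% of members and 22.8% of clonotypes with inserted bases in KO lung CD4, 18.5% and 27.6% in KO thymus Treg, 20.5% and 23.1% in KO spleen CD8, 18.8% and 21.3% in KO spleen CD4, and 21.7% and 28.3% in WT spleen CD8. It was called lower in KO lung CD4, KO thymus Treg and WT spleen CD8. TRBJ1-3 had ratios above 1 in all 5, from 1.28 in KO lung CD4 to 1.83 in KO spleen CD4, and was called higher in KO spleen CD8, KO spleen CD4 and WT spleen CD8.

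The remaining J segments were called in at most 1 library each. Their members' shares ranged between 2.62% (TRBJ1-6 in KO thymus Treg) and 16.7% (TRBJ2-1 in KO spleen CD8). The TRBJ1 cluster as a whole differed by 2.81 ± 3.14 percentage points (SD, n = 5 libraries), higher among members in 4 of 5 libraries (two-sided exact sign-flip permutation test, p = 0.1875), and the sign turned when rows without a D segment were added (-1.70 points) and when reads were used as weights (-2.39 points). With members defined by at most 2 inserted bases it was 7.49 points (exact p = 0.0625). TRBD1 among TRBJ2 clonotypes, where either D segment can be used, differed by 2.11 ± 3.22 points, higher in 3 of 5 libraries (exact p = 0.25), and by 4.65 points at up to 2 inserted bases (exact p = 0.0625). At 0 inserted bases neither difference exceeded its spread over libraries.

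V usage of the members differed in more segments between CD8 and CD4 libraries than between organs or genotype labels. KO spleen CD8 over KO spleen CD4 gave 7 V segments called higher and 6 lower of 19 (68.4%), and KO lung CD4 over KO spleen CD8, from the same mouse, gave 9 higher and 7 lower of 20 (80%). KO lung CD4 over KO spleen CD4 gave 1 higher and 0 lower of 20 (5%), and KO thymus Treg over KO spleen CD4 gave 2 higher and 1 lower of 20 (15%). KO spleen CD8 over WT spleen CD8 gave 0 higher and 1 lower of 17 (5.88%). Clonotypes with inserted bases are fewer in the KO conventional libraries. Among them the CD8 over CD4 comparison of spleen gave 2 higher and 2 lower of 19 (21.1%). KO lung CD4 over KO spleen CD8 gave 2 higher and 5 lower of 18 (38.9%), and KO over WT spleen CD8 3 higher and 2 lower of 18 (27.8%). KO lung CD4 over KO spleen CD4 gave 1 higher and 2 lower of 19 (15.8%). KO thymus Treg over KO spleen CD4 gave 1 higher and 1 lower of 19 (10.5%). In this class the genotype pair thus had a larger share of calls than the CD8 and CD4 pair of spleen, unlike among members. The numbers of clonotypes behind the calls differ between the classes, and the difference in calls was not tested. Comparisons that use KO spleen CD4 or KO spleen CD8 more than once share that library.

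Members with TRBV12-2 made up 4.13% in KO lung CD4, 10.5% in KO spleen CD8 and 5.98% in KO spleen CD4. TRBV16 stood at 7.84%, 12.8% and 7.14% in the same libraries, and TRBV14 at 1.65%, 5.45% and 2.16%. TRBV2 ran the other way, at 5.12% in KO lung CD4, 1.91% in KO spleen CD8 and 6.15% in KO spleen CD4, as did TRBV15, at 8.83%, 4.02% and 7.97%. Among members these 5 segments, chosen after their values were seen, put KO lung CD4 beside KO spleen CD4 and apart from KO spleen CD8. With inserted bases TRBV2 did not, at 1.75% in KO lung CD4, 1.99% in KO spleen CD8 and 5.15% in KO spleen CD4. In the same order TRBV12-2 stood there at 5.37%, 8.12% and 3.92%, and TRBV16 at 5.62%, 9.19% and 6.13%. TRBV14 stood at 0.375%, 2.45% and 1.47%, and TRBV15 at 5.87%, 4.44% and 5.64%.

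**Figure D5:**
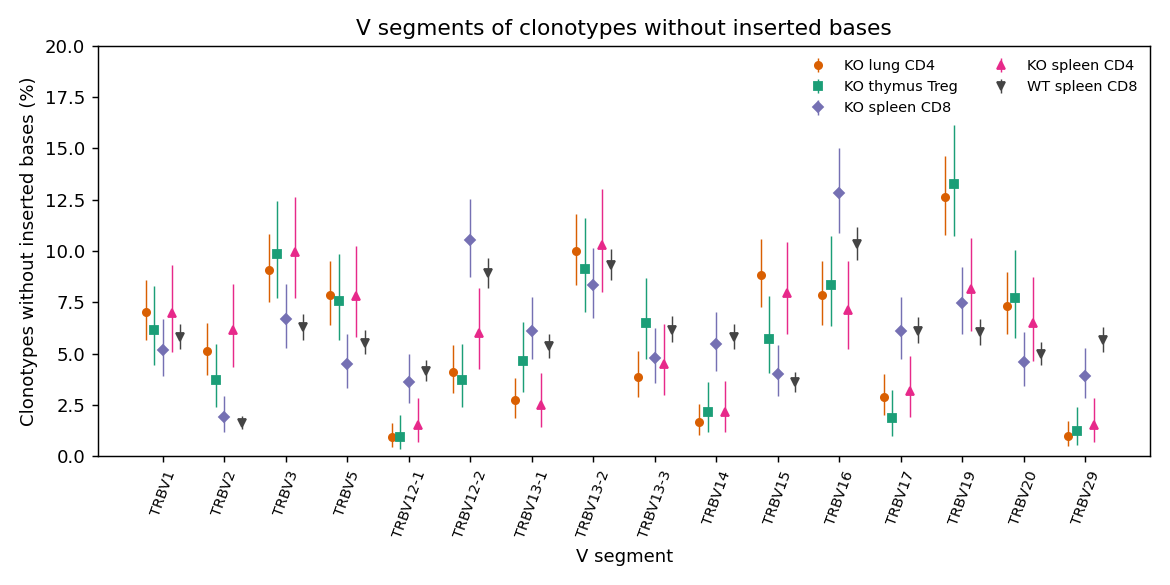
Share of clonotypes without inserted bases (vertical axis, percent) with each V segment (horizontal axis; segments at 3% or more in any library) in the 5 libraries; bars are 95% Clopper-Pearson intervals. Both CD8 libraries lie above the 3 CD4-lineage libraries for TRBV14 and below them for TRBV2.

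TRBV19 was called higher among lung CD4 and thymus Treg members, both set against the same spleen CD4 library. It was at 12.6% in KO lung CD4 and 13.3% in KO thymus Treg, against 8.14% in KO spleen CD4, with ratios of 1.55 (1.14 to 2.11) and 1.63 (1.17 to 2.27). KO thymus Treg members were also higher than KO spleen CD4 in TRBV13-1 (4.63% and 2.49%) and lower in TRBV2 (3.70% and 6.15%). Between the CD8 libraries TRBV29 was lower in KO, at 3.92%, against 5.65% in WT (ratio 0.694, 0.505 to 0.954). RefSeq lists TRBV29 as a pseudogene. Of J segments, TRBJ1-3 was higher in KO spleen CD8 (5.84%, against 4.44% in WT spleen CD8) and TRBJ2-2 lower (3.92%, against 5.53%), 2 of 12 (16.7%). With inserted bases 4 of 12 J segments (33.3%) were called in this pair, and neither TRBJ1-3 nor TRBJ2-2 was among them.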

How the data were processed

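TCRβ transcripts of sorted mouse T cells were sequenced, and 5 clonotype tables deposited by the authors were used; the other 37 samples of the series were not analysed here. The authors deposited a raw read count for every CDR3 form and its fraction of the file's reads, per the file headers; segment ends are positions in bases, counted from the CDR3 start, per the file headers. The submitters' processing notes name mm10 as build; neither aligner nor caller is given in the sources used here. RefSeq (GRCm38.p6) matched all 39 segment names.

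Inserted bases were summed over both joins, and negative gaps did not occur. Python 3.11.15 with pandas 2.3.3, scipy 1.17.1 and numpy 2.4.6 gave Clopper-Pearson intervals, 95% log intervals of ratios and exact sign-flip tests over libraries, which cannot go below p = 0.0625 with 5 libraries; the scripts were tested on simulated data. D sequences were derived from the listed D ranges, and V and J parts were compared with the commonest sequence of each segment in the files. A germline match means a match to these, since no germline sequences were at hand. Members, lists and rules were chosen with earlier results of these data known. Named were segments called the same way in at least 4 libraries, all TRBJ segments by range, members in at least 3 mice (by mice, then reads, at most 12) and each library's leading member; 1 clonotype that the rule names is not reported here, and other segments and the clonotype with inserted bases were picked after their values were seen. Alternatives were a minimum of 2 reads, amino acid clonotypes, removal of clonotypes 1 base from one with 10 times the reads, equal depth, rows without a D segment, up to 2 inserted bases, and reads as weights. A germline match, removal of TRBV22 and a minimum of 10 reads for recurrence were added after seeing the data.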

Additional observations from a re-analysis of the deposited data

How the results depend on the processing

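The share without inserted bases depended most on what counted as a member. With rows lacking a D segment it was 46.1% in KO lung CD4, 23.4% in KO thymus Treg, 48.4% in KO spleen CD8, 46.4% in KO spleen CD4 and 42.2% in WT spleen CD8; with at most 2 inserted bases it was 85.3%, 67.0%, 88.6%, 85.4% and 83.4%; and weighted by reads it was 84.3%, 32.7%, 86.4%, 78.9% and 57.6%. WT spleen CD8 also moved to 52.0% with at least 2 reads and to 49.96% with a germline match of all parts (added after seeing the data). The ratio of KO over WT spleen CD8 was 1.15 with rows lacking a D segment, 1.06 at 2 bases and 1.499 by reads. KO thymus Treg over KO spleen CD4 was 0.506 with rows lacking a D segment and 0.784 at 2 bases. The TRBJ1 difference reversed, to -1.70 points with rows lacking a D segment and -2.39 by reads, and was 7.49 at 2 bases; the TRBD1 difference was 4.65 at 2 bases. The length difference was -0.174 residues with rows lacking a D segment, -0.617 at 2 bases and -0.476 by reads. No segment was called in 4 libraries by reads or without TRBV22 (0 in each case, against 1). The cause was not tested in any of these. The difference in recurrence was positive under every alternative run, from 7.02 points with rows lacking a D segment to 18.6 by amino acid sequence, and 11.8 with mouse 617 averaged, where p cannot go below 0.125. Leaving out each library in turn gave 11.2 to 13.9 points for recurrence, 2.02 to 4.03 for TRBJ1, 1.02 to 2.96 for TRBD1, 0.67 to 0.90 for log2 reads and -0.559 to -0.530 residues for length. TRBD1 use with rows lacking a D segment was not run, since they name no D. No paired analysis was possible because each group had 1 library, as far as groups are compared; the tests over libraries pair the classes without and with inserted bases within each library. Depth limits recurrence, since a clonotype absent from the other mice may have gone unsampled.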

Other observations

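Standard clonotypes with no D segment listed, which belong to neither class, had no base between V and J in 20.4% of 1106 clonotypes in KO lung CD4, 16.2% of 1053 in KO thymus Treg, 20.8% of 807 in KO spleen CD8, 24.04% of 599 in KO spleen CD4 and 21.1% of 4741 in WT spleen CD8. KO thymus Treg was again the lowest. Their mean number of bases between V and J lay between 2.51 and 3.71 and may include bases of a short D segment.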
